A study of Mus musculus with 8 samples.

Results

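The genes described here encode the enzymes that build cholesterol and fatty acids, the regulators that set how much of those enzymes a cell makes, and 1 sterol carrier. Of 33 listed genes, 30 had a probe set annotated to that gene alone, and each was represented by its probe set with the highest mean over the 8 arrays. Those 30 genes were 17 of the sterol branch, 4 regulators and 9 of the fatty acid branch. All 30 were among the 11351 genes (12668 probe sets) bright enough to be tested, the lowest mean log2 intensity of a member being 5.72 against a filter of 4.05. Idi1 and Scd2 shared their probe set with another gene symbol, Acat2 had none in the annotation given, and no value is reported for these 3. Scap had a further probe set with a mean log2 intensity of 3.77, under the filter, which was not used.

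RNA came from dendritic cells grown out of the bone marrow of female wild-type C57BL/6 mice (BMdDCs) with GM-CSF, the cytokine that drives this culture. All groups shared 7 days at 21% oxygen in medium with 10% serum and 20 ng/ml GM-CSF, purification on CD11c beads to 98%, and 2 days at 2% oxygen (14 mmHg) in Opti-MEM with the same GM-CSF, for which the protocol lists no serum. The SCF group then received stem cell factor (SCF), which binds the receptor Kit, at 100 ng/ml for the last 6 hours, and the medium group did not. The work was repeated in 4 experiments, named BC, D2, E and I, each with 1 medium and 1 SCF array. The age of the mice and how many went into an experiment are not stated in the labels. The arrays of an experiment share their cells, so anything else they shared cannot be told apart from the experiment. Their median intensity lay between 13.3 and 13.9, and 14 of 15 dendritic cell markers were measured, all 14 above the filter. Of 11 macrophage and monocyte markers 9 were measured, and all 9 were above the filter as well.

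Cholesterol is assembled from acetyl-CoA through mevalonate, squalene and lanosterol, and fatty acids are built from acetyl-CoA by a carboxylase and a synthase before elongation and desaturation. Transcription of both routes is driven by the membrane-bound factors SREBP-1 and SREBP-2, which SCAP escorts out of the endoplasmic reticulum when sterols are scarce and which INSIG proteins hold back when sterols are plentiful. Serum lipoproteins are a source of sterol for cultured cells, and demethylation of lanosterol, desaturation steps and squalene epoxidation use molecular oxygen.

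The stretch of 250 bases before the transcription start was available from RefSeq (GRCm38.p6) for 26 of the 33 listed genes, in 32 windows because Dhcr7, Srebf1, Scap and Pmvk had several. Sqle, Fdft1, Fdps, Stard4, Scd1, Scd2 and Fads1 had none. The 5 windows below are shown because Hmgcs1 and Insig1 are textbook targets of SREBP and Msmo1, Fads2 and Acss2 were the 3 members whose level differed between experiments after adjustment. Capitals mark 4 motifs, searched on both strands with overlapping matches counted. They are TCACNCCAC, a core of the sterol regulatory element in which N is any base, and CACGTG, the E-box. The others are CCAAT, which reads ATTGG on the opposite strand, and GGGCGG, the GC box. Each is written 5′ to 3′ on the strand of its gene. They lie at chr13:119690101-119690350 (plus strand, Hmgcs1), chr5:28071162-28071411 (plus, Insig1), chr8:64733579-64733828 (minus, Msmo1), chr19:10101504-10101753 (minus, Fads2) and chr2:155517793-155518042 (plus, Acss2).
Hmgcs1: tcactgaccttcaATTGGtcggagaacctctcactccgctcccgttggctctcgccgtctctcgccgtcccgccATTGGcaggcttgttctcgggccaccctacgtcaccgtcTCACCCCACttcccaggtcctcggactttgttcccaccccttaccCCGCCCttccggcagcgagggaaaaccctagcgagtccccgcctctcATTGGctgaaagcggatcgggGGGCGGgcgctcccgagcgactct
Insig1: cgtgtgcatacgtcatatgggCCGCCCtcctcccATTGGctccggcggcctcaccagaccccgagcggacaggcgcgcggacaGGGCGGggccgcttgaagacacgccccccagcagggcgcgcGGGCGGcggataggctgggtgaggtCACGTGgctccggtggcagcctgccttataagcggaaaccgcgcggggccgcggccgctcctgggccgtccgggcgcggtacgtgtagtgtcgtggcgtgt
Msmo1: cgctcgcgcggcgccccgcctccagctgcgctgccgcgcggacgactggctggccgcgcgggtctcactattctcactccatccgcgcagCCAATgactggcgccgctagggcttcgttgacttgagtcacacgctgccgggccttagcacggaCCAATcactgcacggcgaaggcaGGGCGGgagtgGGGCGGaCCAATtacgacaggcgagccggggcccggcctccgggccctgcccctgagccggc
Fads2: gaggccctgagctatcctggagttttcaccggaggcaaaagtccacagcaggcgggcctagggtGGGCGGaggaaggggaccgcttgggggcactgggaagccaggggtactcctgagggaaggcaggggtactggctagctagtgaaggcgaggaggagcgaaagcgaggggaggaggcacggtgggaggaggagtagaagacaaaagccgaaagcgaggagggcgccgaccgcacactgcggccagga
Acss2: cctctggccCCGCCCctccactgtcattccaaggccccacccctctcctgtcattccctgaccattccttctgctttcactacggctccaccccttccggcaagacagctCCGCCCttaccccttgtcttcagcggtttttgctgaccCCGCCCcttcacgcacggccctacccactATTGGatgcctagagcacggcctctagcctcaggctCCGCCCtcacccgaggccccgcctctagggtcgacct

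TCACNCCAC matched in 1 of the 32 windows of the listed genes, that of Hmgcs1, where TCACCCCAC spans the bases 137 to 129 before the start. Among all 32851 windows of this length, 1.05% held it. CCAAT or its reverse complement was found in 21 of 32 windows (65.6%), against 33.9% of all windows and 34.4% of the windows of tested genes. GGGCGG was found in 23 of 32 (71.9%), against 32.7% of all windows and 56.8% of those of tested genes. The windows with both numbered 17 of 32 (53.1%), against 11% of all windows and 19.6% of those of tested genes. CACGTG was found in 6 of 32 (18.8%), in Hsd17b7, Insig1, Dhcr7, Sc5d, Elovl5 and Scap, against 6.02% of all windows and 8.38% of those of tested genes. Msmo1 held 3 CCAAT and 2 GGGCGG matches, Acss2 held 1 and 4, and Fads2 held 1 GGGCGG and none of the other 3 motifs. These are matches of letters in a fixed window, and they do not show binding.

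SCF for 6 hours left the 30 genes close to their level in medium. The fitted change ran from -0.18 on the log2 scale for Cyp51 to 0.14 for Tm7sf2, with a median of -0.02 against 0.00077 over all probe sets tested. By limma with the experiment as a block and Benjamini-Hochberg adjustment, 0 of 30 members passed an adjusted p of 0.05, as did 0% of all probe sets tested. A plain paired statistic also called 0, but with 3 residual degrees of freedom it could hardly pass the adjustment. At an unadjusted p under 0.05, 1 of 30 members was lower and 0 were higher with SCF, where 2.26% of all probe sets were lower and 1.95% higher. No member had medium and SCF arrays that did not overlap, which 0.971% of all probe sets had. The 95% interval of the fold lay within 1.5-fold either way for all 30 members and for 12624 of the 12668 probe sets tested. Among the members the widest bounds were 0.760 for Cyp51 and 1.23 for Tm7sf2.

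The one member past the unadjusted threshold was Msmo1, the methylsterol monooxygenase that starts removal of the C4 methyl groups of lanosterol-derived sterols. Its log2 intensity in BC, D2, E and I was 7.06, 7.47, 7.17 and 6.83 in medium and 6.78, 7.20, 7.13 and 6.74 with SCF. SCF was the lower of the pair in 4 of 4 experiments, by 0.28 and 0.27 in BC and D2 but by 0.04 and 0.09 in E and I, and the groups overlapped. The fitted change was -0.17 (SE 0.06, n = 4 pairs), a fold of 0.889 with a 95% interval of 0.804 to 0.983, with unadjusted p = 0.0277 and adjusted p = 0.945 in limma.

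Other members had the same sign in every experiment without passing any threshold. Hmgcs1 and Fads1 were, like Msmo1, lower with SCF in 4 of 4 experiments, which held for 3 of 30 members against 6.44% of all probe sets. Fasn and Acly were higher in 4 of 4, which held for 2 of 30 against 6.43%. Fitted values were below 0 for 11 of 17 sterol genes (median -0.05), 7 of 9 fatty acid genes (median -0.02) and 1 of 4 regulators (median 0.03). Over all 12668 probe sets 6274 were below 0.

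The direction of the 30 members also varied from one experiment to the next. In BC, D2, E and I respectively, SCF was below medium for 20, 10, 16 and 21 of 30 members and for 6603, 6172, 6314 and 6118 of the 12668 probe sets. The median difference of the members in the same order was -0.05, 0.08, -0.01 and -0.03. Single pairs reached larger values, such as -0.50 for Cyp51 and 0.40 for Mvk in D2, -0.30 for Hsd17b7 in I and -0.28 for Stard4 in BC.

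**Figure D1:**
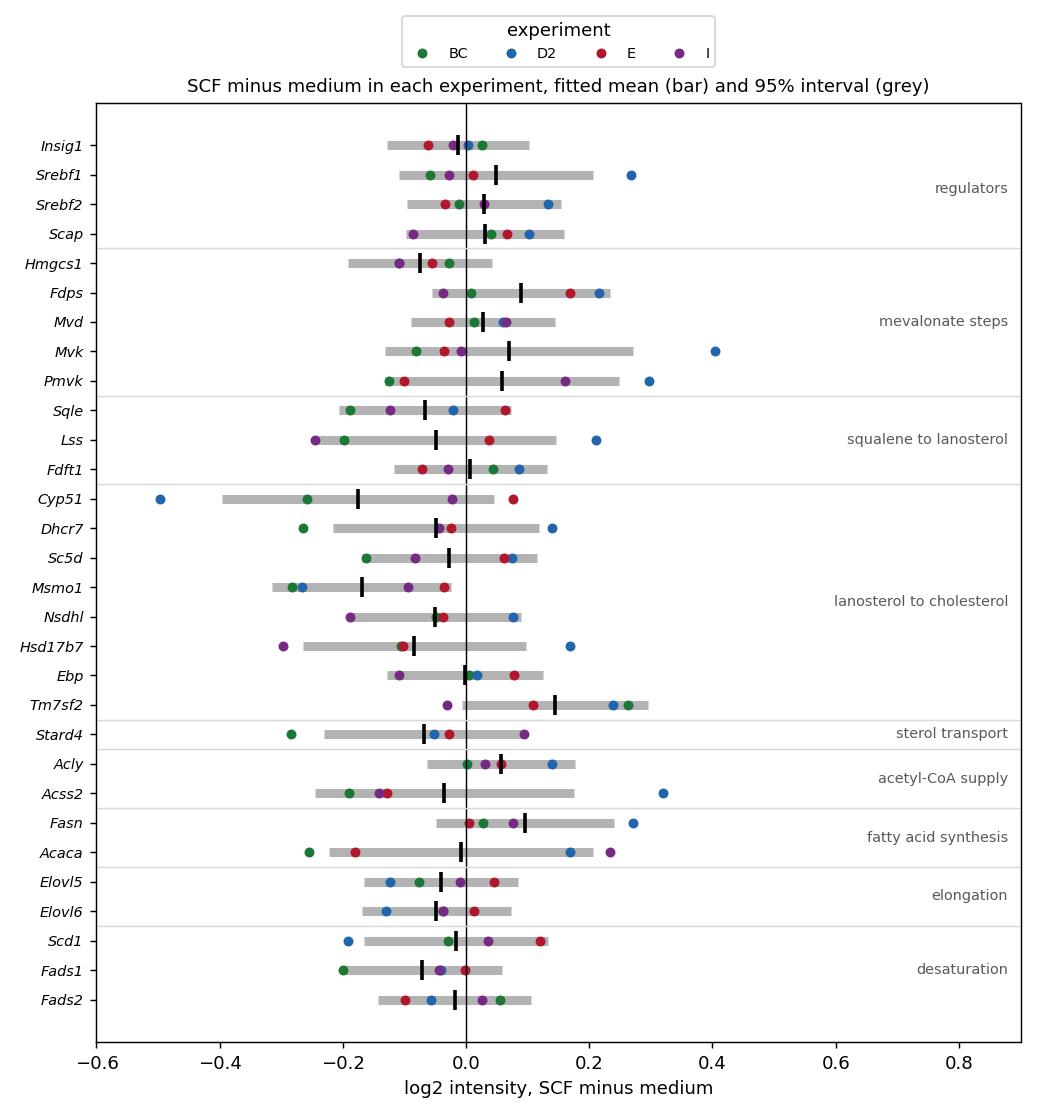
SCF minus medium in log2 intensity (horizontal axis) for the 30 members (rows, grouped by role): coloured points are the 4 experiments, black bars the fitted mean and grey bands its 95% interval. The fitted means lie between -0.18 and 0.14, and the interval leaves out 0 for Msmo1 alone.

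The level of most members varied more between experiments than that of the median probe set. The range of the 4 experiment means, each over 1 medium and 1 SCF array, had a median of 0.33 on the log2 scale (1.25-fold), against 0.20 (1.15-fold) over all probe sets, and ran from 0.09 for Elovl5 to 0.83 (1.78-fold) for Acss2. It exceeded the median of all probe sets in 24 of 30 members. The standard deviation over the 4 medium arrays had a median of 0.16 for the members against 0.11 for all probe sets, and over the 4 SCF arrays 0.15 against 0.11. By limma's F-test of the experiment terms with Benjamini-Hochberg adjustment, 3 of 30 members passed an adjusted p of 0.05 (3.35% of all probe sets did): Fads2 (0.0238), Acss2 (0.0448) and Msmo1 (0.0477). At an unadjusted p under 0.05 there were 18 of 30, or 60.0%, against 24.2% of all probe sets. The error in this test and in the contrasts below is the residual between the paired arrays of an experiment, which share their cells. Its SEs and p-values do not measure how far separate batches of cells vary.

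These 3 calls were kept with the variance trend, the stricter filter, array medians equalized and the mean of a gene's probe sets, but not under every alternative. With no filter the F-test called 1 member (Fads2), beside 0.766% of all probe sets. Msmo1 was no longer called after repeated quantile normalization or without the treatment term. Without BC the F-test called 0 members, without D2 it called 2 (Mvk and Acss2), without E 0 and without I 1 (Fads2). In the same order it called 1.17%, 0.868%, 0.3% and 1.4% of all probe sets, so calls fell across all probe sets. With a trend of variance on intensity it called 13 of 30 members, beside 12.1% of all probe sets, and with the filter at the 75th percentile 13 of 25, beside 22%. Over the 11 alternatives the adjusted p lay between 0.000765 and 0.0672 for Fads2, between 0.00602 and 0.387 for Acss2 and between 0.00724 and 0.166 for Msmo1.

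In experiment I most of the enzymes stood at their lowest. Set against the mean of the other 3 experiments, 26 of 30 members were below 0 in I, with a median of -0.21 (0.865-fold), while 55.3% of all probe sets were below 0 with a median of -0.01. The experiment mean was lowest in I for 21 of 30 members, against 28.8% of all probe sets. Both arrays of I lay under the other 6 arrays for 12 of 30, against 8.53%. At an unadjusted p under 0.05, 18 of 30 members were lower in I (11.6% of all probe sets) and 0 were higher (5.21%). After adjustment 1 member, Acss2, was called lower in limma, beside 0.41% of all probe sets, and 0 were called higher, beside 0.0632%.

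The low position of I was seen in both treatments, whose arrays in I come from the same cells. I held the lowest of the 4 medium arrays for 19 of 30 members and the lowest of the 4 SCF arrays for 20, with 15 members in common. The share of all probe sets was not counted for these. Both arrays of I lay under all other arrays for 12 of 30 members, against 8.53% of all probe sets. All 21 members with their lowest mean in I, and all 18 lower there at an unadjusted p under 0.05, were among the 26 genes that are enzymes or the carrier Stard4, and none was a regulator. Of those 26, 24 were below 0 in I; the others were Mvd (0.04) and Dhcr7 (0.00).

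The number called in I depended on the filter, the scaling and the variance model. With no filter and after repeated quantile normalization 0 of 30 members were called, beside 0.0987% and 0.245% of all probe sets called lower. With a trend of variance on intensity 12 of 30 members were called lower, beside 2.62% of all probe sets, and with the stricter filter 11 of 25, beside 4.72%. Without BC 4 members were called (1.86% of all probe sets called lower) and without D2 or E 0 (0% and 0.071%). In BC, D2 and E the experiment mean was the lowest for 1, 7 and 1 of the 30 members, against 19.7%, 32.2% and 19.4% of all probe sets. At an unadjusted p under 0.05, 2, 4 and 0 members were lower there, against 7.26%, 10.3% and 5.41%, and 7 members were higher in D2 (10.9%) and 3 in E (8.63%).

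**Figure D2:**
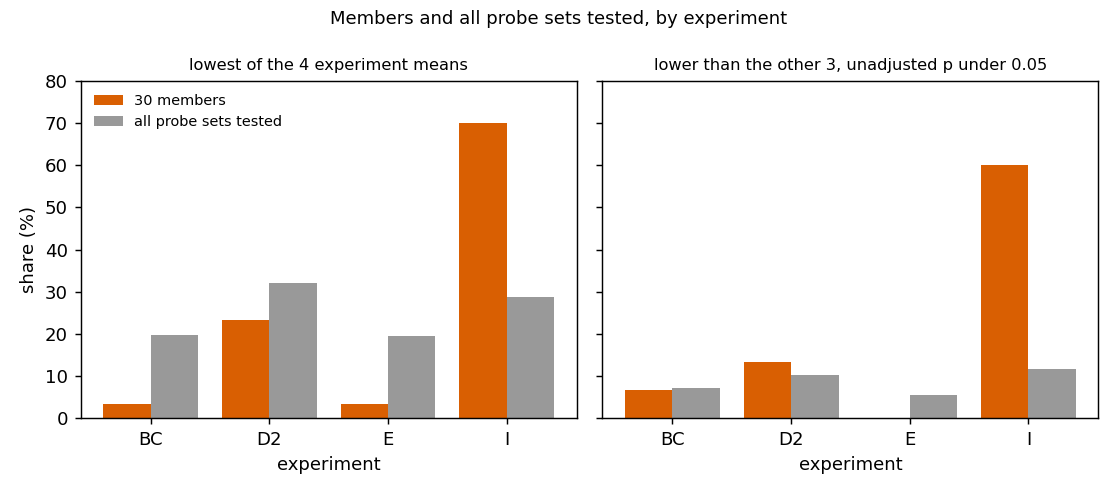
Share in percent (vertical axis) of the 30 members (orange) and of all 12668 probe sets tested (grey) in each experiment. The left panel counts genes whose experiment mean is the lowest of the 4 and the right panel genes lower than the other 3 experiments at an unadjusted limma p under 0.05; in I these are 70.0% and 60.0% of members against 28.8% and 11.6% of probe sets.

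BC most often had the highest experiment mean, though not in every part of the pathway. It was highest for 16 of 30 members, against 31.7% of all probe sets. At an unadjusted p under 0.05, 8 of 30 members were higher in BC, against 11.3%. Members above 0 numbered 24 in BC, 15 in D2 and 27 in E, against 55.7%, 44.7% and 52.6% of all probe sets. Their medians were 0.10 in BC, 0.00 in D2 and 0.08 in E. From lanosterol to cholesterol the median was 0.01 in BC, 0.14 in D2 and 0.10 in E. In limma 2 members were called higher in BC after Benjamini-Hochberg adjustment, Mvk and Fads2, beside 1.2% of all probe sets, and 0 were called lower, beside 1.14%. In D2 and E 0 members were called, where 0% of all probe sets were called in D2 and 1.09% in E. With the stricter filter or the variance trend, members were called in D2 and E as well as in I. The share of all probe sets called in D2 and E was not counted there. The 4 contrasts use the same 8 arrays, and adjustment was done within each contrast and not over the 4 together.

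**Figure D3:**
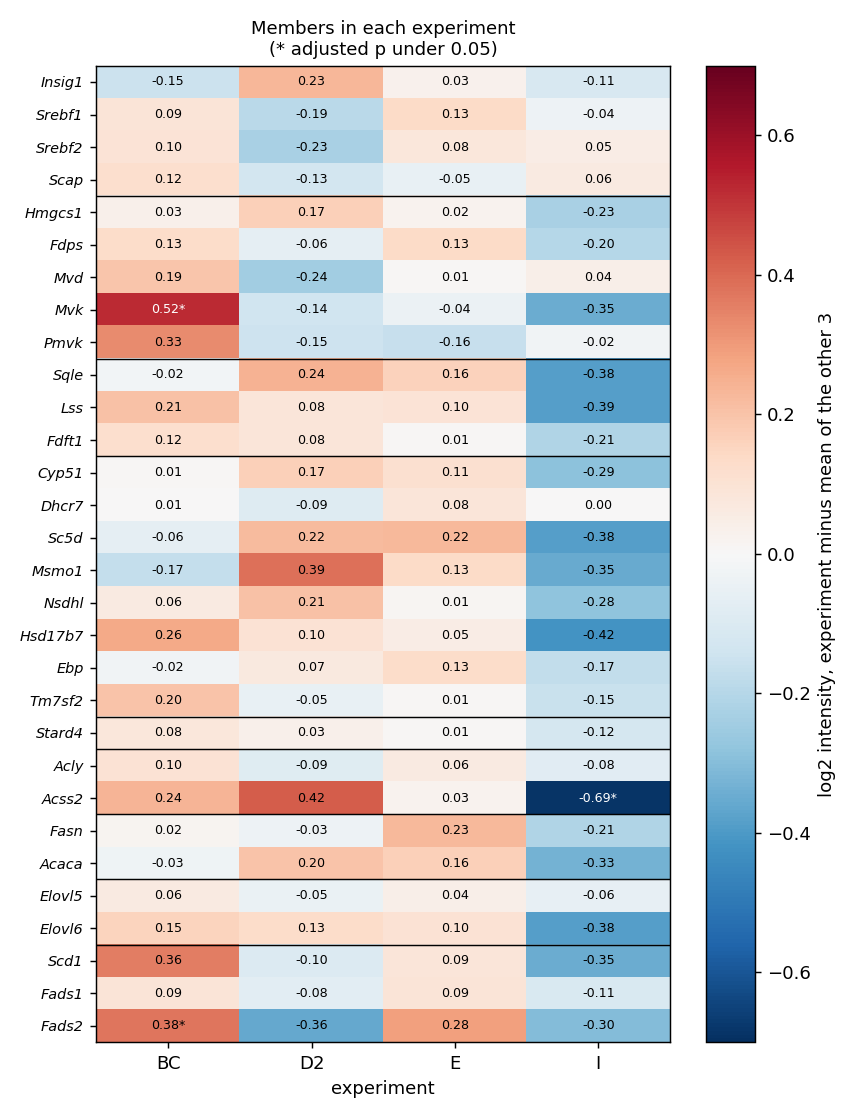
Log2 intensity of each experiment minus the mean of the other 3 (columns) for the 30 members (rows, in the order of the roles), coloured from blue (lower) to red (higher), with stars at an adjusted limma p under 0.05. The column of I holds 26 values below 0, down to -0.69 for Acss2, and the starred cells are Mvk and Fads2 in BC and Acss2 in I.

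None of the 4 regulators had its lowest experiment mean in I, though Insig1 was close to it. Srebf2, which encodes SREBP-2, the factor mainly tied to sterol genes, had log2 intensities in BC, D2, E and I of 8.59, 8.27, 8.58 and 8.53 in medium and 8.57, 8.40, 8.55 and 8.56 with SCF. Both arrays of D2 were its lowest, and the other 6 spanned 8.53 to 8.59. SCF minus medium was 0.03 (SE 0.05), with groups that overlapped, and I minus the other experiments was 0.05 (SE 0.06, adjusted p = 0.736 in limma). Srebf1, which encodes SREBP-1 and is tied mainly to fatty acid genes, read 6.49, 6.12, 6.49 and 6.38 in medium and 6.44, 6.39, 6.50 and 6.36 with SCF. Its lowest array was the medium array of D2, the groups overlapped, the SCF change was 0.05 (SE 0.07) and the difference of I was -0.04 (SE 0.08).

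Scap encodes the escort protein of the SREBPs. It read 6.18, 5.97, 6.04 and 6.20 in medium and 6.22, 6.07, 6.11 and 6.12 with SCF, again with its lowest array in D2 medium and with overlapping groups. The SCF change was 0.03 (SE 0.05) and I minus the others 0.06 (SE 0.06). Insig1 encodes a protein that retains SCAP when sterols are plentiful and is itself a target of SREBP. It read 8.29, 8.58, 8.46 and 8.34 in medium and 8.31, 8.59, 8.40 and 8.32 with SCF. Its arrays in BC and I were low and those of D2 high in both treatments, with an SCF change of -0.01 (SE 0.05) and overlapping groups. I minus the others was -0.11 (SE 0.06, unadjusted p = 0.0883 and adjusted p = 0.374 in limma), the lowest value among the regulators. Srebf1, Srebf2 and Scap thus had their lowest experiment mean in D2, as 32.2% of all probe sets did, and Insig1 had it in BC.

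Among the mevalonate steps, Hmgcs1 makes HMG-CoA, the substrate of the rate-limiting reductase. Its log2 intensity in BC, D2, E and I was 7.95, 8.10, 7.96 and 7.80 in medium and 7.93, 7.99, 7.91 and 7.69 with SCF. Both arrays of I were under all others, while the treatment groups overlapped. SCF minus medium was -0.07 (SE 0.05, lower in 4 of 4 experiments, adjusted p = 0.945 in limma), and I minus the others -0.23 (SE 0.06, adjusted p = 0.121).

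Mvk, mevalonate kinase, read 6.26, 5.52, 5.82 and 5.57 in medium and 6.18, 5.93, 5.78 and 5.56 with SCF. Both BC arrays were above the other 6, and D2 held the lowest medium array but the second highest SCF array, so the groups overlapped. BC minus the others was 0.52 (SE 0.10), or 1.44-fold, with adjusted p = 0.0457 in limma and a range of 0.0151 to 0.114 over 9 alternatives. The call was lost without E or I and with no filter. By the F-test between experiments Mvk did not pass (adjusted p = 0.0765 in limma). SCF minus medium was 0.07 (SE 0.09) and turned to -0.04 without D2. Of the other mevalonate genes, Fdps (farnesyl diphosphate synthase) had -0.20 in I, Pmvk (phosphomevalonate kinase) -0.02 and Mvd (mevalonate diphosphate decarboxylase) 0.04. All 5 were above 0 in BC.

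The 3 genes from squalene to lanosterol all had both arrays of I under the other 6. Sqle, squalene monooxygenase, an oxygen-using and rate-limiting step, read 8.17, 8.28, 8.18 and 7.87 in medium and 7.98, 8.26, 8.24 and 7.74 with SCF. The treatment groups overlapped, with a difference of -0.07 (SE 0.06), and I minus the others was -0.38 (SE 0.07), or 0.766-fold, with adjusted p = 0.0649 in limma. Lss, lanosterol synthase, had -0.39 in I (SE 0.10, adjusted p = 0.117), and Fdft1, squalene synthase, -0.21 (SE 0.06, adjusted p = 0.167). Their SCF changes were -0.05 and 0.01.

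From lanosterol to cholesterol, 7 of 8 genes were below 0 in I, 6 of them at an unadjusted p under 0.05. Sc5d, the lathosterol desaturase, read 7.45, 7.55, 7.56 and 7.17 in medium and 7.29, 7.62, 7.62 and 7.09 with SCF. Both arrays of I were its lowest, D2 and E its highest, and the treatment groups overlapped with a difference of -0.03 (SE 0.06). I minus the others was -0.38 (SE 0.07, adjusted p = 0.067 in limma). Msmo1, whose arrays are given above, was lowest in I (-0.35, SE 0.07, adjusted p = 0.0846) and highest in D2, and its 4 experiment means spanned 0.55, or 1.47-fold. The SCF array of BC (6.78) lay under the medium array of I (6.83), so the experiments were not fully apart.

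Hsd17b7, a sterol ketoreductase, had -0.42 in I (SE 0.09, adjusted p = 0.0918 in limma), the largest difference among the sterol genes. Cyp51, the lanosterol demethylase, had -0.29, and Nsdhl, which acts in the same C4 demethylation as Msmo1, had -0.28. Ebp, a sterol isomerase, had -0.17 and Tm7sf2, a sterol reductase, -0.15. Dhcr7, which carries out the last reduction to cholesterol, had 0.00, and its experiment means spanned 1.09-fold. Stard4, a carrier of cholesterol in the cytosol, had -0.12 (SE 0.08), and its SCF array in I was above its SCF array in BC.

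**Figure D4:**
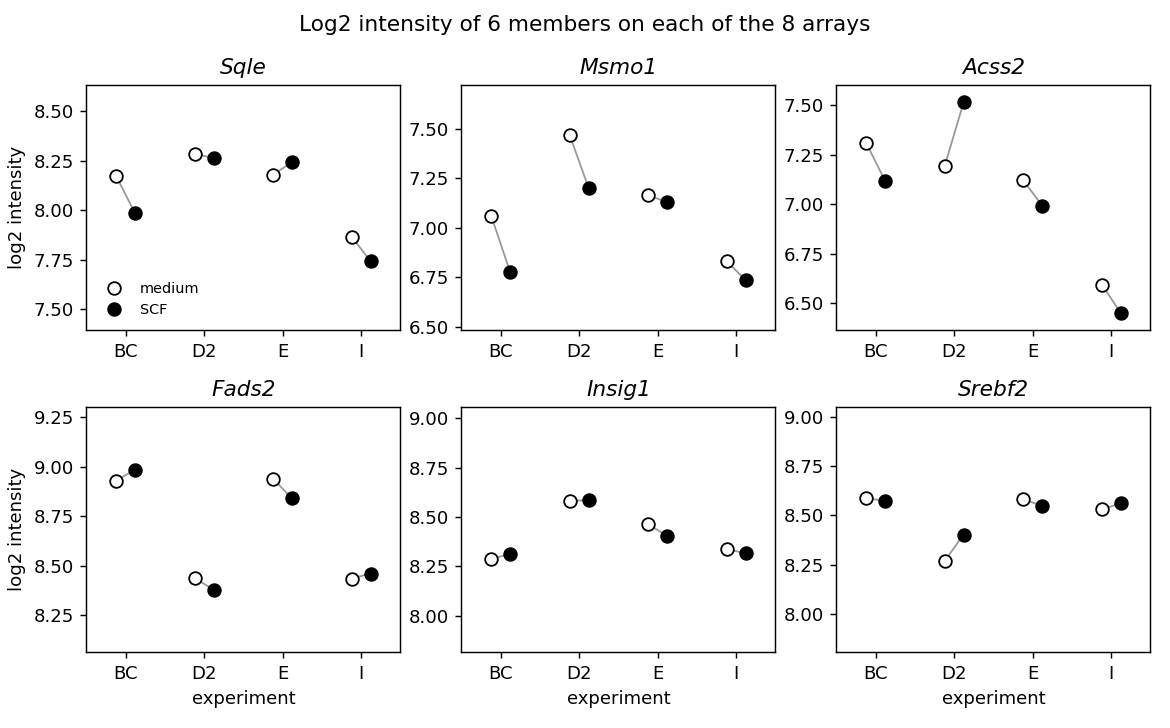
Log2 intensity (vertical axes, each of the same length) of 6 members on the 8 arrays by experiment, medium as open and SCF as filled circles, with lines joining the pair of an experiment. Sqle and Acss2 have both I arrays under all others, Fads2 separates BC and E (8.84 to 8.99) from D2 and I (8.38 to 8.46), and Srebf2 is lowest in D2.

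The largest difference among the 30 members was that of a gene of acetyl-CoA supply. Acss2, the synthetase that makes cytosolic and nuclear acetyl-CoA from acetate, read 7.31, 7.19, 7.12 and 6.59 in medium and 7.12, 7.51, 6.99 and 6.45 with SCF. Both arrays of I were under the other 6, the treatment groups overlapped, and SCF minus medium was -0.04 (SE 0.09), from 0.32 in D2 to -0.19 in BC. I minus the others was -0.69 (SE 0.10), or 0.622-fold, with adjusted p = 0.0499 in limma and a range of 0.00542 to 0.0973 over 10 alternatives. The call was lost without D2, without E, with no filter and after repeated quantile normalization. Acly, which makes acetyl-CoA from citrate, had -0.08 in I (SE 0.06) and an SCF change of 0.06 (SE 0.05).

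The committed steps of fatty acid synthesis showed smaller differences in I. Acaca, acetyl-CoA carboxylase, read 5.82, 5.78, 5.93 and 5.35 in medium and 5.57, 5.95, 5.75 and 5.58 with SCF. Its lowest array was I medium, but its SCF array in I was level with that of BC, and the treatment groups overlapped. SCF minus medium was -0.01 (SE 0.09), from -0.25 in BC to 0.23 in I, and I minus the others was -0.33 (SE 0.11, adjusted p = 0.194 in limma). Fasn, fatty acid synthase, read 8.20, 8.03, 8.36 and 8.002 in medium and 8.22, 8.31, 8.37 and 8.08 with SCF. It was highest in E, its D2 medium array (8.03) lay between the arrays of I, and the groups overlapped. The SCF change was 0.10 (SE 0.06, higher in 4 of 4 experiments, adjusted p = 0.945 in limma) and I minus the others -0.21 (SE 0.07, adjusted p = 0.219).

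Of the 2 elongases, Elovl6, which lengthens saturated chains such as palmitate, read 6.92, 6.95, 6.86 and 6.52 in medium and 6.89, 6.82, 6.87 and 6.48 with SCF. Both arrays of I were under the other 6, which spanned 6.82 to 6.95, and the treatment groups overlapped (SCF minus medium -0.05, SE 0.05). I minus the others was -0.38 (SE 0.06), or 0.766-fold, with adjusted p = 0.0507 in limma. Elovl5, which lengthens polyunsaturated chains, had -0.06 in I (SE 0.06), and its experiment means spanned 1.06-fold, the least of the 30 members.

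Scd1, the stearoyl-CoA desaturase that makes monounsaturated chains, read 9.53, 9.27, 9.25 and 8.96 in medium and 9.50, 9.07, 9.37 and 8.999 with SCF. Both arrays of BC were highest and both of I lowest, with overlapping treatment groups and an SCF change of -0.02 (SE 0.06). I minus the others was -0.35 (SE 0.07, adjusted p = 0.0901 in limma). Fads2, the delta-6 desaturase of polyunsaturated synthesis, read 8.93, 8.44, 8.94 and 8.43 in medium and 8.99, 8.38, 8.84 and 8.46 with SCF. The 4 arrays of BC and E lay at 8.84 or above and the 4 of D2 and I at 8.46 or below, the same in both treatments.

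BC minus the others was 0.38 for Fads2 (SE 0.06), or 1.30-fold, with adjusted p = 0.0343 in limma and a range of 0.00242 to 0.135 over 10 alternatives. The call was lost without D2, E or I and with no filter. Fads1, the delta-5 desaturase, had experiment means within 1.11-fold and -0.11 in I (SE 0.06). Its SCF minus medium difference was -0.07 (SE 0.06, lower in 4 of 4 experiments).

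Other genes of sterol handling and lipid synthesis gave a smaller difference in I. Of all probe sets, 0% were called for SCF and 3.35% by the F-test, where 24.2% had an unadjusted p under 0.05. In I 55.3% of all probe sets were below 0, and 11.6% were lower and 5.21% higher at an unadjusted p under 0.05. Of 40 further genes of sterol homeostasis, 28 were measured and 26 tested, of which 0 were called for SCF and 1 by the F-test, Lbr (adjusted p = 0.0471 in limma), a lamin B receptor with sterol reductase activity. In I 17 of these 26 were below 0, with a median of -0.07, 5 lower and 3 higher at an unadjusted p under 0.05, and 0 called after adjustment. The next by F-test p were Gramd1a and Stard5, a sterol transfer and a sterol binding protein, with 0.27 and -0.17 in I. Of 42 further genes of fatty acid and complex lipid synthesis, 40 were measured and 30 tested, with 0 called for SCF and 0 by the F-test. An unadjusted F-test p under 0.05 was found for 7 of the 30 (23.3%), near the 24.2% of all probe sets. In I 19 of these 30 were below 0, with a median of -0.07, 4 lower and 1 higher at an unadjusted p under 0.05. The first by F-test p were Acsl4 (-0.29 in I), Hsd17b12 (-0.30) and Agpat1 (0.05). Of 15 oxysterol and efflux genes 14 were measured and 12 tested, with 0 called for SCF and 1 by the F-test, Ch25h, the cholesterol 25-hydroxylase (adjusted p = 0.0169). Ch25h was highest in E, with 5.58 and 5.23 in medium and SCF against 4.38 to 4.89 on the other 6 arrays, and its difference in I was -0.44 (adjusted p = 0.0809). Next by F-test p were Abca1, an efflux pump of cholesterol, with -0.28 in I, and Abcg4, another sterol transporter, with 0.23. Over the 12 tested the median in I was -0.04, with 8 below 0 and 4 above, and 3 lower and 1 higher at an unadjusted p under 0.05. For SCF against medium, 2 genes of the first list (Erlin2, -0.15, and Ubxn8, -0.17) were lower at an unadjusted p under 0.05. So were 3 of the second list (Hsd17b12, -0.24, Dgat1, -0.14, and Hacd4, -0.30), where 2.26% of all probe sets were lower. In these lists 0 were higher, against 1.95%, and the third list had 0 in either direction. These 5 genes are named for that p.

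Genes outside lipid synthesis also moved with the experiments. Of 17 tested genes of the oxygen response, 7 were called by the F-test, against 3.35% of all probe sets. Set against the other experiments, 8 were called lower in BC (1.14% of all probe sets) and 3 higher in E (0.892%). In I 1, Ddit4, was called higher (0.70, SE 0.09, adjusted p = 0.0305 in limma), beside 0.0632%. All 9 measured macrophage and monocyte markers passed the filter, and 4 were called by the F-test, against 3.35%. Of these markers 3 were called lower in BC (1.14%) and 3 higher in E (0.892%). In I 0 of them were called in either direction, and 4 were lower (11.6%) and 1 higher (5.21%) at an unadjusted p under 0.05. Their summed intensity was 3509 to 3934 in BC, 3772 to 4043 in D2, 4459 to 4758 in E and 3898 to 3980 in I. In I, Cd14 had -0.57 (adjusted p = 0.0608) and Ccr2 -0.52 (0.0917), while Ly6c2 had 0.66 (0.0634).

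The 14 dendritic cell markers gave 0 calls by the limma F-test. Of them 6 had an unadjusted p under 0.05, against 24.2% of all probe sets. The summed intensity of these markers ran from 11018 to 11543 over the 8 arrays. Of 12 mast cell and basophil markers 3 passed the filter. The F-test called 2 of these, Cpa3 and Kit, beside 3.35% of all probe sets. Kit, the receptor of SCF, was lowest in D2 (6.40 and 6.42 in medium and SCF) and between 6.55 and 6.96 elsewhere. Of 10 neutrophil markers 2 passed the filter, of 8 measured lymphocyte markers 1, and of 9 measured stromal and adipocyte markers 2. Fewer cells of a type and less RNA per cell cannot be told apart in these bulk samples. The part that the oxygen response or other cell types had in the members' differences between experiments was not tested.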

How the data were processed

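RNA of 8 cultures was read on 1-colour Affymetrix arrays after whole-transcript labelling, 1 array per culture, per the labels' protocols. The deposited intensities, 1 for each probe set on each array, were made by the authors with RMA, per the submitters' processing notes. Its version, filters and any detection call are not known here, so signal over background is unknown. The values are on a linear scale (maximum 3588 to 4252 per array), so log2 was taken, with no pseudocount and no further normalization. A platform annotation gave 1 gene symbol to 23521 of 41345 probe sets, several to 1814 and none to 16010. Probe sets with a symbol were tested where their mean log2 intensity reached the median of those means, 4.05 (16.6 linear), which left 12668. Levels are not compared between probe sets.

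Groups and experiments came from the sample titles. The design text states that each experiment made 1 batch of cells for both conditions, and arrays of the same experiment correlated at 0.36 to 0.46 after removal of the group means, against at most 0.31 between experiments. limma 3.58.1 in R 4.3.3 (lmFit, eBayes) fitted treatment and experiment to all probe sets, two-sided, with Benjamini-Hochberg adjustment at a threshold of 0.05, with 3 residual degrees of freedom (7.39 with the prior). The same fit gave the F-test between experiments and each experiment against the mean of the other 3, with adjustment within each of these contrasts. Intervals are at 95%, and 4 arrays per group limit the precision. The code was run on simulated data drawn from the model's own assumptions, which checks the code and not whether those assumptions hold here.

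The members and gene lists were chosen with earlier results of these data known. Values on all 8 arrays are given for the regulators, 6 committed or rate-limiting steps where measured, members with an unadjusted p under 0.05 for SCF and the 8 with the smallest F-test p; in other lists up to 3 genes by F-test p are named. Promoter windows were taken from RefSeq. Alternatives were the filter, normalization, block, variance trend, probe-set choice, treatment term and leaving out each experiment.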

Additional observations from a re-analysis of the deposited data

Results flagged for a closer look

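Among the 60 sets of 4 arrays checked (30 members in each treatment), 2 had an array whose gap to the nearest other array took up more of the whole range than Dixon's 95% critical value, where chance gives about 1 in 20. The SCF array of experiment D2 read 8.40 for Srebf2, while the other 3 SCF arrays read 8.55 to 8.57. The SCF array of experiment I read 6.48 for Elovl6, while the other 3 read 6.82 to 6.89. In both cases the medium array of the same experiment was also the lowest of its group.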

How the results depend on the processing

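For SCF against medium, 0 probe sets and 0 members were called under every alternative run, among them the fit with no replicate block, the random block and the plain paired statistic; the paired fit with the block as fixed effect called 0 and changed no call. The members' median stayed between -0.04 and 0.0029. Leaving out 1 experiment turned the sign of small changes, none of which passed: Mvk ran from -0.042 to 0.12, Sc5d from -0.061 to 0.018, Insig1 from -0.026 to 0.0025, Srebf1 from -0.025 to 0.084, Srebf2 from -0.0056 to 0.050, Acaca from -0.089 to 0.074, Scd1 from -0.062 to 0.042, Fads2 from -0.043 to 0.0079 and Acss2 from -0.15 to 0.017. For I against the others, Srebf1 (-0.04) became 0.0072 after repeated quantile normalization and ran from -0.11 to 0.0096 with 1 experiment left out, and Srebf2 ran from -0.027 to 0.10; the members' median stayed between -0.23 and -0.20.

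Counts of calls between experiments moved more. The F-test called 194 probe sets and 1 member with no filter, and 1396 and 13 with the stricter filter. With the variance trend it called 1527 and 13, and without the treatment term 522 and 6. With 1 experiment left out it called 38 to 177 probe sets and 0 to 2 members. Members called in I are given beside the share of all probe sets called lower there. They numbered 0 with no filter (0.0987%), 11 with the stricter filter (4.72%) and 2 with array medians equalized (0.781%). After repeated quantile normalization they numbered 0 (0.245%), and with the mean of a gene's probe sets 2 (0.846%). With the variance trend they numbered 12 (2.62%), without the treatment term 4 (0.789%) and with 1 experiment left out 0 to 4 (0% to 1.86%). In BC they numbered 0 with no filter, 4 with the stricter filter and 0 to 1 with 1 experiment left out. In D2 they numbered 8 with the stricter filter and 6 with the variance trend, and in E 1 under each. These counts in BC, D2 and E take both directions together. The share of all probe sets called in BC, D2 and E was not counted under these settings, so the counts cannot be set against it. With the stricter filter and the variance trend the F-test called 22% and 12.1% of all probe sets. Fewer probe sets enter the adjustment with the stricter filter (6334) and more with none (25335); otherwise the cause was not tested. Scaling moved the median of all probe sets by less than 0.1 on the log2 scale.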
